A study of Mus musculus with 8 samples.

Results

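Nr4a1 and Nr4a2 encode orphan nuclear receptors, and all probe sets paired with the single symbol Nr4a1 or Nr4a2 were taken. They were 3 of 12422 probe sets on the array, 1 of Nr4a1 (102371_at) and 2 of Nr4a2 (92248_at and 92249_g_at), or 2 of 8251 named genes. Both Nr4a2 probe sets were designed on the same sequence record, so they are repeat readings of 1 transcript and not independent of each other. Nr4a3, the remaining family member, had no probe set under its single symbol and was not analysed here.

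Visual cortex came from wild-type C57Bl6 mice at postnatal day 24, 4 days after 1 eye had been removed at postnatal day 20. Non-deprived cortex lay on the side of the removed eye and deprived cortex on the opposite side, which receives most of that eye's input. There were 4 arrays of each, numbered 1 to 4, and the labels do not settle whether an array holds 1 mouse or a pool, so p-values measure only how these samples vary, and part of that variation may be technical. Both groups came from operated mice, so a fall on the deprived side and a rise on the other side cannot be told apart.

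Receptors of the NR4A family have no known ligand that switches them on in the usual way. Their activity follows largely from how much protein is made, and in neurons both genes are immediate-early genes, transcribed within minutes of calcium entry or cAMP without new protein synthesis. The proteins bind DNA alone at the NBRE, a half-site of the nuclear receptor type, in pairs at the NurRE, or, for Nr4a1 and Nr4a2, with the retinoid X receptors. In the brain Nr4a1 (Nur77) is known as a marker of recent activity and a regulator of spine density and metabolism, and Nr4a2 (Nurr1) for the identity of midbrain dopamine neurons and as a marker of claustrum and deep cortical neurons.

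The sequence before the transcript start is shown for both genes, because calcium and cAMP reach them through CREB, which binds the cAMP response element (CRE). The 250 bases before the RefSeq start are printed from the GRCm38.p6 build, chr15:101266596-101266845 on the plus strand for Nr4a1 and chr2:57124004-57124253 on the minus strand for Nr4a2, 5′ to 3′ in the direction of transcription. Capitals mark the CRE half-site, TGACG, or CGTCA where it lies on the opposite strand.
Nr4a1: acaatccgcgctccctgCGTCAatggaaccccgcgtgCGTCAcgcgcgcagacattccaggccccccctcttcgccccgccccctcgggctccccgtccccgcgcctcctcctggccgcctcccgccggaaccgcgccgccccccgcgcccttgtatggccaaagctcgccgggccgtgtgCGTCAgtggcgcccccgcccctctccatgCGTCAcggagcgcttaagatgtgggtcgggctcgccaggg
Nr4a2: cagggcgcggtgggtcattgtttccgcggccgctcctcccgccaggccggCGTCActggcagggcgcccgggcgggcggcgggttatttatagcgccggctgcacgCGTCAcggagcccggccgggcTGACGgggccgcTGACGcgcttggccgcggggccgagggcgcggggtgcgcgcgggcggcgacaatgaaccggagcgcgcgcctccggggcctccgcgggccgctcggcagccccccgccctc
Each window held 4 half-sites. Those of Nr4a1 began 233, 213, 69 and 40 bases before the start, and those of Nr4a2 200, 144, 123 and 111 bases before it. Of 32851 mouse promoter windows of this length, 17.8% held at least 1 half-site and 0.137% held 4 or more. The windows were rich in G and C, at 74.4% for Nr4a1 and 80.0% for Nr4a2 against a median of 52.4%. Among the 1503 windows with a G and C share at or above that of Nr4a1, 0.399% held 4 or more half-sites.

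**Figure D1:**
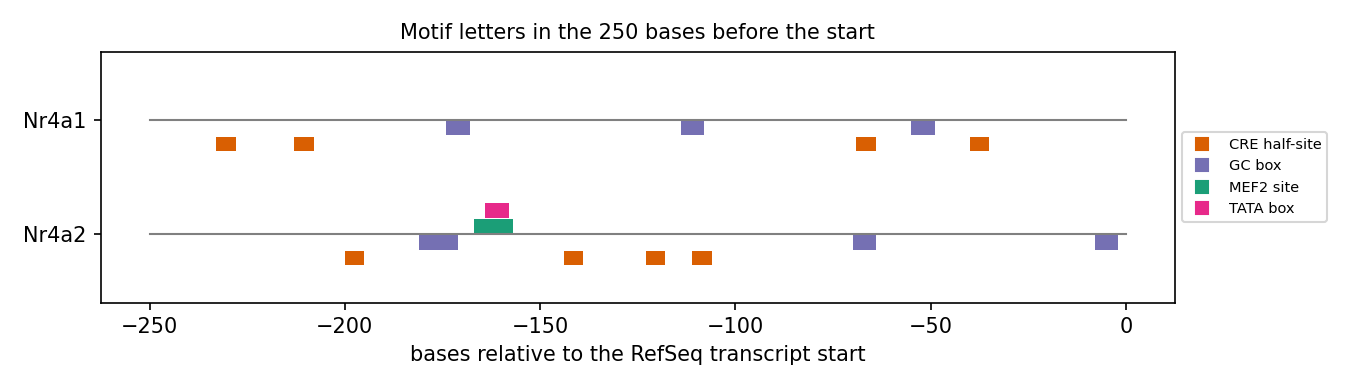
Position of motif letters in the 250 bases before the transcript start of Nr4a1 and Nr4a2; the horizontal axis is in bases, with the start at 0, and bars are coloured by motif and span the matched bases. Each gene has 4 CRE half-sites, and the MEF2 and TATA box matches of Nr4a2 overlap each other.

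Searched on both strands, the whole CRE (TGACGTCA), which holds the half-site, the NBRE (AAAGGTCA), the AP-1 site (TGANTCA) and the CArG box of serum response factor had no match in either window. Their letters were present in 1.55%, 1.34%, 6.75% and 1.47% of all windows. The GC box (GGGCGG) matched 3 times in Nr4a1 and 4 times in Nr4a2, with 2 of the latter overlapping, and 32.7% of windows held at least 1. Nr4a2 alone had a match to the MEF2 site, found in 2.92% of windows, and to the TATA box (TATAAA), found in 12.4%; its single matches to these motifs overlap. A match is a run of letters and not an observed binding site, and no binding was measured in these samples.

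Nr4a1 signal was lower in deprived cortex in every same-numbered pair. It was 2601, 4451, 2473 and 2873 in non-deprived replicates 1 to 4, and 1359, 1901, 1607 and 1977 in deprived replicates 1 to 4. The groups did not overlap, and non-deprived replicate 2 stood well above the other 3 arrays of its group. Mean signal was 3100 ± 916 without and 1711 ± 284 with deprivation (SD, n = 4 each), a coefficient of variation of 29.6% and 16.6%. The difference on the scale of log2(signal + 15.2) was -0.83 ± 0.20 (SE), or a fold of 0.564 with a 95% interval of 0.42 to 0.758 in limma.

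The exact two-sided permutation test over the 70 assignments of arrays gave p = 0.0286 for Nr4a1, the smallest possible with 4 against 4. Adjusted over all 7453 probe sets past the filter on dim signal (a mean signal of about 110), limma gave an adjusted p of 0.995, so Nr4a1 did not pass the threshold of 0.05. Its unadjusted p of 0.00122 was the 4th smallest of the 7453, and 19 probe sets had a more negative difference. With the replicate number as a block the interval of its log2 difference was -1.11 to -0.54. The unadjusted limma p was then 8.26e-05 and the adjusted p 0.116, still above the threshold. Limma called 0 probe sets lower and 0 higher in the whole table (0% each), with 91 lower and 108 higher at an unadjusted p under 0.05 (1.22% and 1.45%), and 524 in both directions with the replicate number as a block (7.03%). The highest deprived array was below the lowest non-deprived one for 60 probe sets, or 0.805%, and Nr4a1 was 1 of them.

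**Figure D2:**
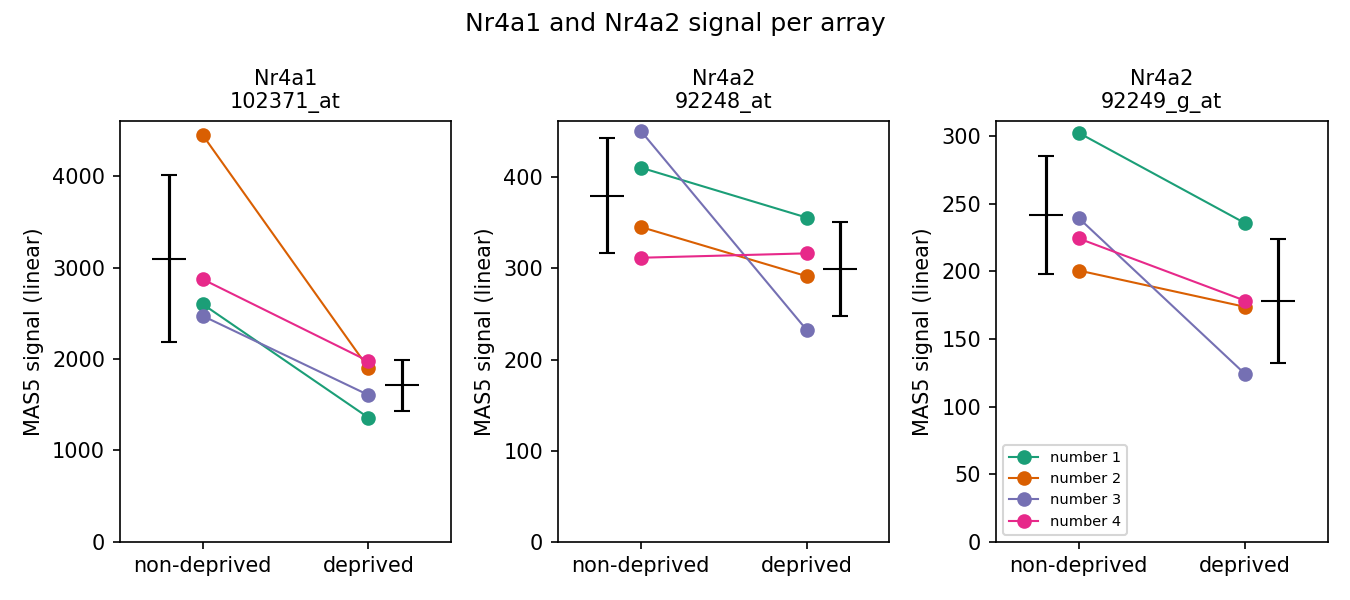
MAS5 signal (linear vertical axis from 0) of each probe set of Nr4a1 and Nr4a2 on the 8 arrays; coloured lines join arrays of the same number, and black bars are group means with their SD (n = 4). Nr4a1 is at most 1977 on the deprived arrays and at least 2473 on the non-deprived arrays, while the groups of both Nr4a2 probe sets overlap.

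Within pairs the deprived signal of Nr4a1 was 52.2%, 42.7%, 65.0% and 68.8% of the non-deprived signal for numbers 1 to 4. These are log2 differences of -0.93, -1.22, -0.62 and -0.54. All 4 pairs thus had the same sign, and 6.92% of all probe sets were lower in 4 of 4 pairs. The exact sign-flip test over the pairs gave p = 0.125, the smallest that 16 sign patterns allow. Pair 2 had the largest drop, set mainly by its high non-deprived array. Without non-deprived replicate 2 the log2 difference was -0.64, and without pair 2 it was -0.69.

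Nr4a2 gave smaller differences, and with all 8 arrays neither of its probe sets passed limma's adjusted test or the exact permutation test. For 92248_at the signal was 411, 346, 451 and 312 in non-deprived replicates 1 to 4, and 356, 292, 233 and 317 in deprived replicates 1 to 4. The ranges overlapped, since deprived replicate 1 exceeded 2 of the non-deprived arrays. Group means were 380 ± 62.8 and 299 ± 51.6 (SD, n = 4 each). The log2 difference was -0.33 ± 0.18 (SE), a fold of 0.795 with a 95% interval of 0.602 to 1.05 (limma adjusted p = 0.995, exact permutation p = 0.143).

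The other probe set, 92249_g_at, read 303, 201, 240 and 224 in non-deprived replicates 1 to 4, and 236, 174, 125 and 179 in deprived replicates 1 to 4. Deprived replicate 1 again lay within the non-deprived range, and the other 3 deprived arrays lay below it. The means were 242 ± 43.5 and 178 ± 45.6 (SD, n = 4 each). Its log2 difference was -0.43 ± 0.22 (SE), a fold of 0.744 with a 95% interval of 0.533 to 1.04 (limma adjusted p = 0.995, exact permutation p = 0.0857). With the replicate number as a block the interval of the log2 difference was -0.85 to -0.0034 and the unadjusted limma p 0.0485, with an adjusted p of 0.703. Without deprived replicate 1, the only overlapping deprived array, the exact permutation p was 0.0286, the smallest possible for the arrays left. It was 0.0857 to 0.171 without any other array.

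By pair, the log2 difference of 92248_at was -0.20, -0.23, -0.91 and 0.02 for numbers 1 to 4, lower in 3 of 4 pairs. For 92249_g_at it was -0.34, -0.19, -0.87 and -0.31, lower in 4 of 4. Pair 3 thus carried the largest drop of Nr4a2 in both readings, where pair 2 carried that of Nr4a1. Without pair 3 the differences were -0.14 and -0.28, and without deprived replicate 3 alone they were -0.22 and -0.28. The signal of 92248_at was 1.36 to 1.88 times that of 92249_g_at on the same array, lowest on non-deprived replicate 1 and highest on non-deprived replicate 3.

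**Figure D3:**
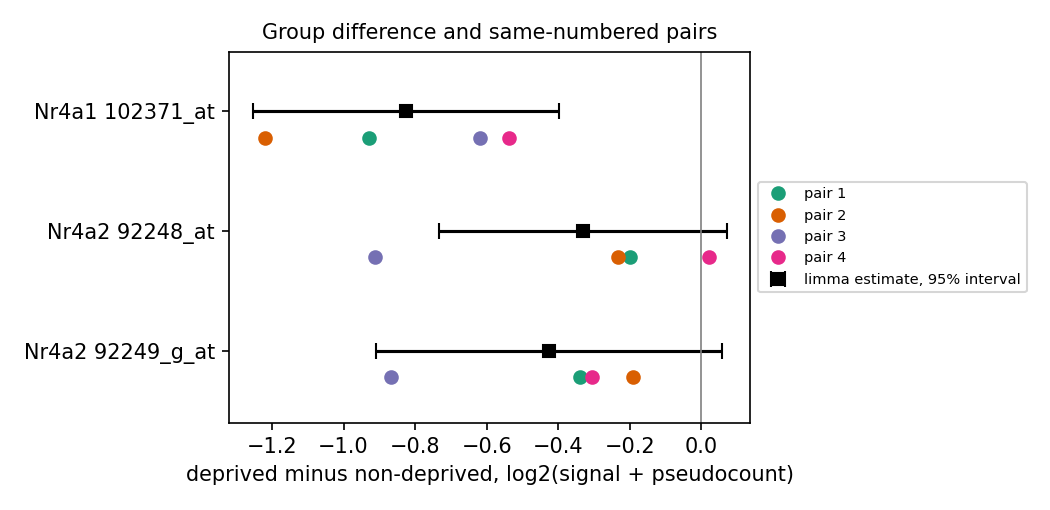
Deprived minus non-deprived difference of log2(signal + 15.2) for each probe set; black squares are the limma estimates with 95% intervals and coloured dots the same-numbered pairs. The interval of Nr4a1 lies below 0, those of both Nr4a2 probe sets reach above 0, and pair 2 is lowest for Nr4a1 and pair 3 for Nr4a2.

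Whether Nr4a1 was lowered more than Nr4a2 was tested on the log2 difference between the genes on each array. The difference of Nr4a1 was more negative by -0.50 than that of 92248_at (exact permutation p = 0.257) and by -0.40 than that of 92249_g_at (exact permutation p = 0.429). It was more negative in 3 of 4 pairs in each case, with pair values from -0.99 to 0.29 and from -1.03 to 0.25. Pair 3 had the opposite sign in both. The gap shrank to -0.27 and -0.13 without non-deprived replicate 2, and to -0.31 and -0.16 without deprived replicate 1. A different response of the genes was therefore not shown by these 8 arrays, nor was an equal one.

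The genes with the pattern most like each receptor differed between them. Likeness was measured as Pearson's r of log2 values over the 8 arrays, group difference included, against 1 probe set for each of the other 5674 named genes past the filter. It is a description, as the arrays share their scaling and the highest of so many values is high by selection. For Nr4a1 the 5 most alike were Fos (0.963), Egr2 (0.944), Egr1 (0.933), Adam19 (0.920) and Ier2 (0.908). Fos encodes an AP-1 subunit, Egr1 and Egr2 zinc-finger factors, Ier2 a small nuclear protein, all known as immediate-early genes, and Adam19 a membrane metalloprotease.

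Deviations from the group means, which leave out the group difference, still gave r of 0.890 with Fos, 0.843 with Egr2, 0.823 with Egr1, 0.788 with Adam19 and 0.689 with Ier2. On non-deprived replicate 2 Nr4a1, Fos, Egr1 and Egr2 were all at their highest. Mean signals on the non-deprived and the deprived side were 2818 ± 665 and 1495 ± 165 for Fos, and 6703 ± 1999 and 4018 ± 775 for Egr1 (SD, n = 4). They were 953 ± 241 and 611 ± 84.4 for Egr2, and 936 ± 157 and 603 ± 86.2 for Ier2. Adam19 had 349 ± 15.3 and 307 ± 22.3, a log2 difference of -0.18. None of these 5 passed limma adjusted over all probe sets (adjusted p = 0.995 for each). All were lower in 4 of 4 pairs, which follows in part from their choice by likeness to Nr4a1, group difference included. Ranked by the deviations alone, the 5 genes at the top were others, for Nr4a1 as for Nr4a2.

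For Nr4a2, read by 92248_at, the 5 most alike were Dipk2a (0.940), Zfpm1 (0.940), Socs2 (0.938), Nrtn (0.920) and Olfm1 (0.920), of which 0 are on the list of immediate-early genes. Zfpm1 encodes a cofactor of GATA factors, Socs2 a suppressor of cytokine signalling, Nrtn the GDNF-family ligand neurturin, and Olfm1 a secreted neuronal olfactomedin. Their log2 differences were -0.21, -0.23, -0.37, -0.35 and -0.28, and 0 of the 5 passed. Fos, the gene most like Nr4a1, had r of 0.327 with Nr4a2 and stood at place 1259 of the 5674. Nr4a1 itself had r of 0.344 with Nr4a2, place 1190, and r of -0.398 in deviations from the group means. Without the 2 arrays farthest from the median of Nr4a1, r between the receptors was 0.715, or 0.887 with 92249_g_at in place of 92248_at, so the low value over 8 arrays rests on those arrays.

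**Figure D4:**
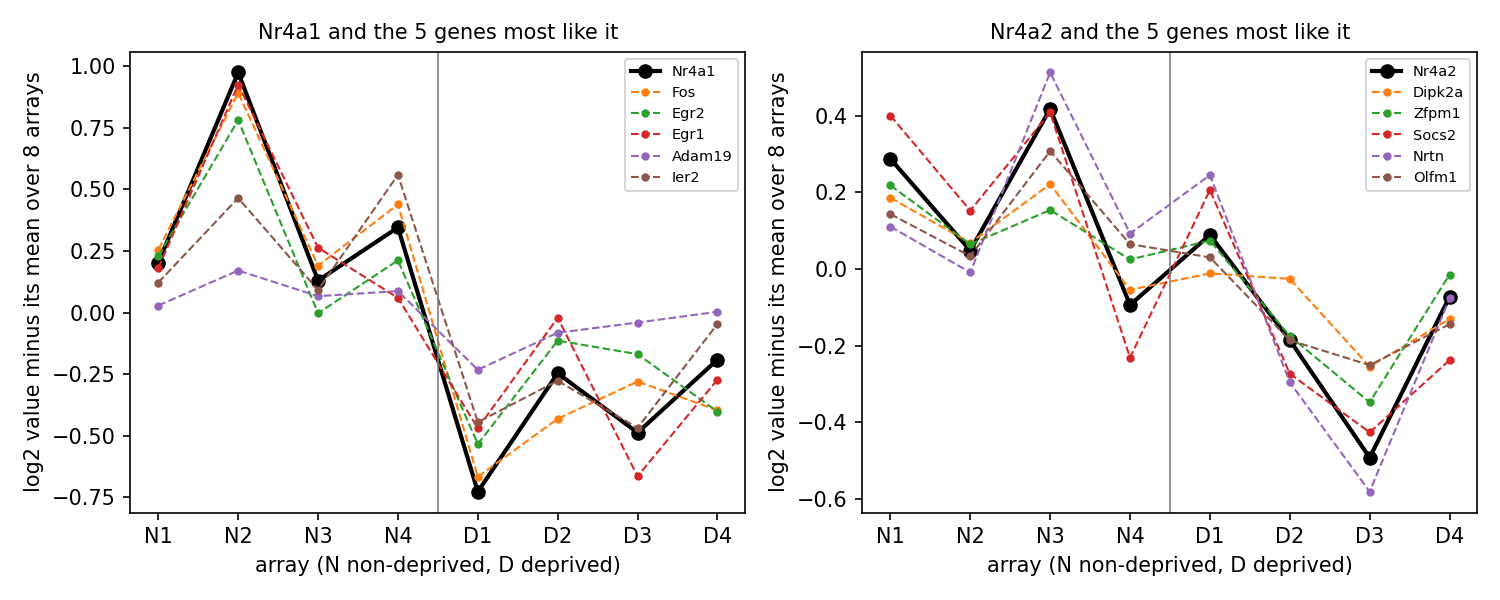
Log2 value of each gene minus its own mean over the 8 arrays (vertical axis), by array (N non-deprived, D deprived, with the replicate number), for Nr4a1 (left, black) and Nr4a2 (right, black) with the 5 genes most like each. Nr4a1, Fos, Egr1 and Egr2 peak on N2, whereas Nr4a2 is highest on N3 and lowest on D3.

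Immediate-early genes, the class to which both receptors belong, were lower in most cases. Without Nr4a1 and Nr4a2, 17 of the listed genes passed the filter and 14 lay below 0, with a median log2 difference of -0.28, against 45.1% of probe sets below 0 and a median of 0.02 over the whole table. For 6 of the 17 no deprived array reached the lowest non-deprived one, against 0.805% of all probe sets. Limma called 0 of the 17. At an unadjusted p under 0.05 there were 8 lower, against 1.22% of all probe sets. With the replicate block there were also 8 lower, against 7.03% of all probe sets in both directions. The smallest p of these 17 were those of Fos (-0.89), Junb (-0.68), Ier2 (-0.62) and Egr1 (-0.71). Jun, an AP-1 subunit, lay at 0.32, Fosl2 at 0.14 and Klf6 at 0.10, the 3 of the 17 above 0. Fos and Egr1 each had another probe set below the filter on dim signal, at 0.45 and 0.16. The dimmer probe set of Junb, past the filter, had -0.88. The members were chosen with these values known, so they are no independent support for each other.

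Most measured genes on the list of signalling upstream of the receptors had a log2 difference of RNA above 0. The activity of their proteins was not measured. Of 20 measured genes of calcium, CREB and MEF2 signalling, 16 lay above 0 and 4 below, with a median of 0.11, and limma called 0 in either direction (0 at an unadjusted p under 0.05, or 1 lower and 1 higher with the replicate block). Mef2b and Mef2d, of the MEF2 family that binds the Nr4a1 promoter in T cells, went from 272 ± 70.6 to 350.4 ± 61.9 and from 5964 ± 1538 to 7375 ± 1904 (SD, n = 4). The differences were 0.37 ± 0.21 and 0.30 ± 0.21 on the log2 scale (SE). Prkaca, the catalytic subunit of the cAMP-dependent kinase, had -0.28 ± 0.18, and Nfatc2, a calcineurin-activated factor, 0.21 ± 0.17. Crem, a CREB relative, had -0.20 ± 0.25 in its brighter probe set and -0.0094 ± 0.26 in the dimmer one. The 3 probe sets of Creb1 were below the filter, at mean signals of 57.4 to 92.7 in either group.

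Dimer partners and coregulators lay slightly above 0. The retinoid X receptor Rxra went from a signal of 604 ± 90.3 to 698 ± 274 on the deprived side, and Rxrb from 1659 ± 331 to 1827 ± 340 (SD, n = 4), both at a log2 difference of 0.14. The dimmer probe set of Rxra had 0.03. Rxrg was below the filter, at 14.1 and 15.9. Of 13 measured partners and coregulators 12 lay above 0, with a median of 0.13, where 45.1% of all probe sets lay below 0. Limma called 0 of the 13, and 0 had an unadjusted p under 0.05. With the replicate block 1 higher did, against 7.03% of all probe sets in both directions. Crebbp, a histone acetyltransferase that CREB recruits, had the smallest p of the list, at 938 ± 153 and 1268 ± 305 with a log2 difference of 0.41 ± 0.19 (SE). Next by p were Ppargc1a at 0.29 ± 0.24, Rxrb, and Ncoa3 at 0.17 ± 0.22.

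Of the other nuclear receptors, 16 passed the filter, 11 above 0 and 5 below, with a median of 0.10 and a range of -0.33 to 0.41. Limma called 0 of them and 0 had an unadjusted p under 0.05, and for 0 of the 16 did the groups separate. The smallest p were those of Pgr (0.41 ± 0.28, SE), Nr2f2 (-0.33 ± 0.23), Nr1d1 (0.30 ± 0.24) and Ppara (0.26 ± 0.23). Pgr encodes the progesterone receptor, Nr2f2 the orphan receptor COUP-TFII, Nr1d1 the clock repressor REV-ERB alpha and Ppara a fatty acid sensor. Nr4a1 at -0.83 lay below the whole range of this list.

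Genes reported elsewhere, many outside cortex, as targets of NR4A receptors were mixed. Of 23 measured, 14 lay below 0 and 9 above, with a median of -0.04, and limma called 0. At an unadjusted p under 0.05 there were 2 lower, against 1.22% of all probe sets. With the replicate block there were 3 lower, against 7.03% of all probe sets in both directions. The 2 found without the block were Bdnf, a neurotrophin, with 2016 ± 540 and 1112 ± 346, and Gadd45b, a stress and activity gene, with 326 ± 16.5 and 191 ± 75.1 (SD, n = 4). Both are themselves activity-regulated. Th, the rate-limiting enzyme of dopamine synthesis and a target of Nr4a2 in the midbrain, was dim and had 125 ± 49.3 and 189.5 ± 60.1, a log2 difference of 0.56 ± 0.30 (SE). Ptpru, a receptor phosphatase tied to Nr4a2 in the midbrain, had -0.38 ± 0.20, and Vip, a neuropeptide precursor, -0.16 ± 0.20. The median of the list was 0.11 with no filter on dim signal and 0.04 without deprived replicate 4.

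**Figure D5:**
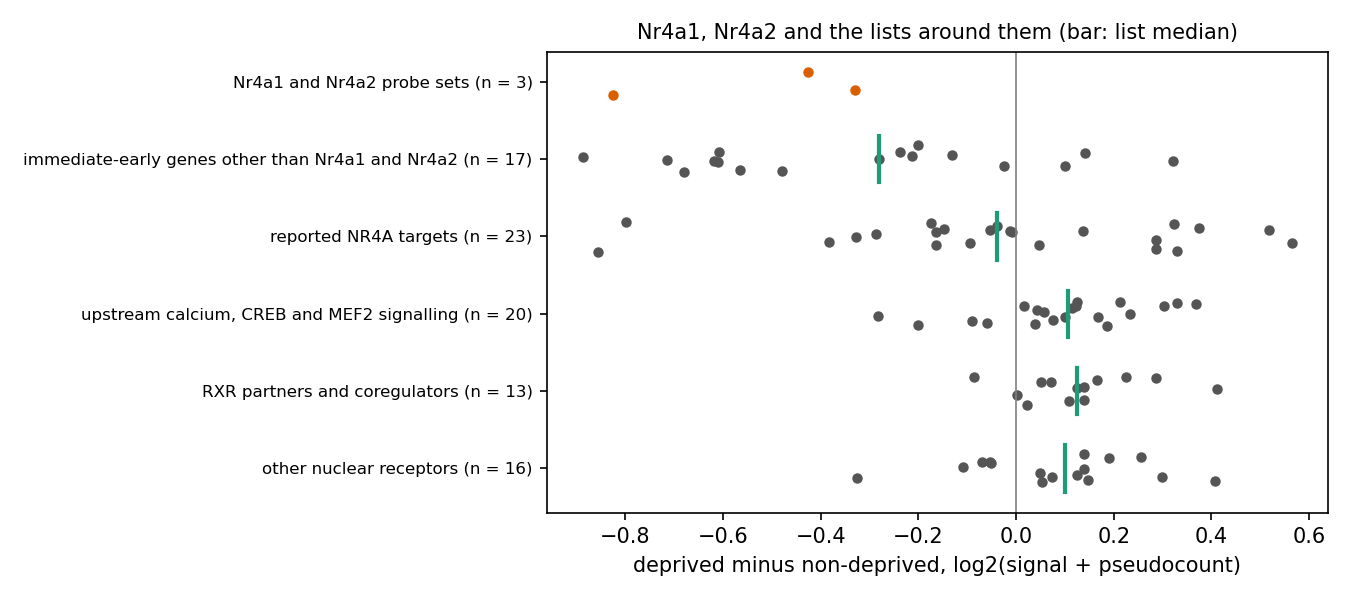
Deprived minus non-deprived difference of log2(signal + 15.2) for the 3 probe sets of Nr4a1 and Nr4a2 (top) and for the genes of the lists around them; each dot is 1 gene, placed with vertical scatter for legibility, and green bars are list medians. The immediate-early genes have a median of -0.28, and the medians of the other lists run from -0.04 to 0.13.

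Values that could move with the receptors were set beside them. Subplate and claustrum markers, the cells that Nr4a2 is known to mark, were 2 above and 2 below 0 of 4 measured, with a median of -0.05 and a summed signal of 1556 to 2171 on non-deprived arrays and of 1604 to 1863 on deprived ones. Latexin (Lxn) among them had 462 ± 35.5 and 367 ± 46.6 (SD, n = 4), lower in 4 of 4 pairs (-0.33 ± 0.15, SE). Ccn2 lay at -0.12, Lpar1 at 0.05 and Gnb4 at 0.02. The interneuron peptide somatostatin (Sst) had 4097 ± 1270 and 2956 ± 1209, also lower in 4 of 4 pairs (-0.49 ± 0.27), as were 6.92% of all probe sets. The mean log2 value of the interneuron list was lower in 4 of 4 pairs too, with Sst the member farthest from 0. Of its other members, Vip lay at -0.16, Gad2 at -0.04, Gad1 at 0.02 and Pvalb at 0.03. Wfs1, on the hippocampus list, had 997 ± 80.4 and 821 ± 91.1, lower in 4 of 4 pairs with groups that did not overlap (-0.28 ± 0.14). Such groups were found for 0.805% of all probe sets, and Neurod1, on the same list, lay at 0.13. Cortical layer markers had a median of -0.04 (7 of 10 below 0) and interneuron markers of -0.04 (3 of 5), and both excitatory markers, Neurod6 (-0.26) and Camk2a (0.12), were above the filter. Thalamus markers had 0.11 (4 of 5 above 0), microglia 0.10 (4 of 6), endothelium 0.09 (4 of 6), astrocytes 0.01 (3 of 6), oligodendrocytes -0.06 (1 of 4) and hippocampus -0.08 (1 of 2). The 9 monocyte and choroid plexus probe sets were all below the filter, with mean signals of 6.41 to 66.8, and limma called 0 of any marker list (0 lower and 0 higher at an unadjusted p under 0.05). With the replicate block, the unadjusted p was under 0.05 for 1 lower gene each of the interneuron, subplate and claustrum, endothelium and hippocampus lists. It was also under 0.05 for 2 higher astrocyte genes and 1 higher thalamus gene. Over the whole table the block put 7.03% of probe sets under 0.05, both directions together. The part of these cell types in the lower Nr4a1 and Nr4a2 values was not tested. In tissue pieces like these, fewer cells of a type and less RNA per cell cannot be told apart.

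Array measures also differed. The median signal ran from 183 to 209, and Pearson's r between log2 values of any 2 arrays, across probe sets past the filter, from 0.926 to 0.973. That median was 189 ± 6.46 without and 200 ± 7.85 with deprivation (SD, n = 4; exact permutation p = 0.114), higher on the deprived array in 4 of 4 pairs. The dim end of the signals, taken as their 10th percentile, lay at 13.5 ± 0.718 without and at 17.2 ± 2.68 with deprivation (SD, n = 4; exact permutation p = 0.0286). For the actin controls the ratio of 3' to 5' signal, a sign of RNA integrity, was 1.39 ± 0.179 and 1.64 ± 0.239 (exact permutation p = 0.171), and that of Gapdh 0.898 ± 0.0543 and 0.842 ± 0.0345 (exact permutation p = 0.143). The deprived array had the higher 10th percentile in 4 of 4 pairs, the higher actin ratio in 3 and the higher Gapdh ratio in 0. Non-deprived replicate 2, highest for Nr4a1, also had the highest Gapdh ratio, 0.977. In fits with these ratios as covariates the log2 difference of Nr4a1 was -0.83 for actin and -0.55 for Gapdh. Those of Nr4a2 were -0.29 and -0.44 with the actin ratio, and -0.37 and -0.49 with the Gapdh ratio.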

How the data were processed

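Expression was measured on 8 1-colour short-oligonucleotide arrays, with about 10 µg of total RNA from visual cortex dissected from 1 mm coronal sections, per the labels' protocols. The authors deposited a signal intensity for each probe set on a linear scale, computed with MAS5 per the submitters' processing notes; its version is not given in the sources used here. All 8 sample columns were used. Each array was rescaled to a common 2% trimmed mean (about 500 as deposited), the 66 control probe sets were dropped, and values were put on the scale log2(signal + 15.2), where 15.2 is the 10th percentile of signal. This scale understates changes of dim genes. Probe sets with a mean log2 value above the 40th percentile were kept, 7453 of 12422. Names came from the platform annotation, with 10833 probe sets paired with 1 symbol, 396 with several and 1193 with none; 10817 were updated through Entrez identifiers to GRCm38.p6. Promoter sequences are RefSeq's for that build, and both genes were matched.

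The comparison of the groups used R 4.3.3 and limma 3.58.1 (lmFit, eBayes with intensity trend, two-sided, Benjamini-Hochberg over all probe sets past the filter, threshold 0.05), and single probe sets with exact two-sided permutation tests. Every difference is given as deprived minus non-deprived. For lists, the brightest probe set stood for each gene. The number of arrays limits the precision. The limma fit was tested on simulated data with independent noise and with changes larger than those of the receptors. Plots were made in Python 3.11.15 using matplotlib 3.10.9.

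The members and lists were chosen with earlier results of these data known. The named genes are the members, the 5 genes most like each, the 4 of each list with the smallest p, and Rxra, Rxrb, Rxrg, Creb1, Crem, Fos, Egr1, Junb, Bdnf, Th, Vip and Pcp4. Pcp4 was dim (19.1 and 29.4). Nr4a3, Atf1, Cyp19a1, Spp1 and Etv1 were also in the rule but had no probe set under a single symbol. Marker lists are given mostly by counts, and Jun, Fosl2, Klf6, Lxn, Sst, Wfs1, Neurod6 and Camk2a were named after their values were seen. So were Ccn2, Lpar1, Gnb4, Gad1, Gad2, Pvalb and Neurod1. Some genes stand in several lists (Rxra and Rxrb, Rora, Ppargc1a, Crem, Vip).

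No label ties a replicate number to a mouse. Arrays sharing a number had deviations from their group means that correlated at 0.158 to 0.422, against -0.271 to 0.123 for arrays with different numbers. Each of the 4 pairs was over 0.1, the limit of this check, and the number was therefore also tried as a block. Alternatives were other scalings, pseudocounts and filters, array weights, no trend, the replicate block and leaving out arrays or pairs.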

Additional observations from a re-analysis of the deposited data

How the results depend on the processing

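The log2 difference of Nr4a1 and of both Nr4a2 probe sets was below 0 under every alternative run. It ran from -0.83 to -0.55 for Nr4a1 over the 13 settings that keep all arrays, and from -0.92 to -0.64 when an array or a pair was left out. For 92248_at it ran from -0.37 to -0.29 and from -0.45 to -0.14, and for 92249_g_at from -0.51 to -0.36 and from -0.56 to -0.28. No setting gave an adjusted p under 0.05. With the replicate block the adjusted p of Nr4a1 was 0.116, its smallest, and with the number as a random effect 0.192; the block changed no call. At the 60th percentile filter 92249_g_at was no longer tested.

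The exact permutation p of Nr4a1 was 0.0286 with each other scaling and pseudocount. A pseudocount keeps the order of the arrays, so groups that do not overlap return this p with any pseudocount. The p of Nr4a1 was also 0.0286 with any 1 array left out, the smallest possible there. As its groups do not overlap, only splits in the opposite direction could raise it, so that says little about stability. The exact permutation p of 92248_at was 0.0571 with quantile or cyclic loess scaling and 0.0857 to 0.257 with an array left out. That of 92249_g_at was 0.0286 to 0.171 with an array left out, the lowest without deprived replicate 1. That array is the only deprived one within the non-deprived range. Without it the groups do not overlap, which favours a small exact permutation p, so this value adds no support. The gap between the genes ran from -0.67 to -0.27 against 92248_at and from -0.58 to -0.13 against 92249_g_at with an array left out.

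Limma called 0 probe sets in the 11 settings with all arrays and the 8 with an array left out in which the whole table was counted. At an unadjusted p under 0.05 there were 199, against 491 with no filter and 97 at the 60th percentile, where more or fewer probe sets were tested. There were 524 with the replicate block, 535 with it as a random effect and 368 with array weights, and 133 to 429 with an array left out (311 without deprived replicate 1, 429 without deprived replicate 4 and 133 without non-deprived replicate 4). The cause was not tested.

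Which genes are most like the receptors depended on the measure. Of the 5 for Nr4a1, 2 remained by Spearman's rho, 0 by deviations from group means and 4 after quantile scaling, and of the 5 for Nr4a2 2, 0 and 3.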
